A study of Homo sapiens with 3 samples.

Results

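The ERK feedback and immediate early genes described here are 48 of the 13936 genes in the deposited table of AB12 cells, an established mouse malignant mesothelioma line. They were chosen by symbol, with earlier results of these data known. The symbols were every numbered Dusp gene, the Sprouty and Spred genes, the Egr, Fos and Jun factors, Ier2, Ier3, Ier5 and Ier5l, Etv4 and Etv5, Phlda1, and Klf2 to Klf6. The study compared 1 RNA library of cells with the treatment label shSC, taken as the control hairpin, with 2 libraries labelled shNF2. The shNF2 libraries carry the numbers 20 and 21 in their titles and are called library 20 and library 21. All 3 libraries came from AB12 cells grown in RPMI with serum, and polyA RNA was sequenced. The labels do not say whether 20 and 21 are different hairpins, nor whether the cells were clones or pools or came from separate cultures, so a p-value here rests on spread that may be purely technical. Although the labels give human as the organism, the gene identifiers are mouse, as is the build mm10 in the submitters' processing notes, and the values were read as mouse.

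Growth factors that bind receptor tyrosine kinases switch on Ras, which starts the RAF, MEK and ERK kinase cascade. Active ERK enters the nucleus, and within minutes immediate early genes such as Fos, Jun and Egr1 are transcribed without new protein synthesis. The same signal induces its own brakes: the Sprouty and Spred proteins act at the level of the receptor and Ras, and dual-specificity phosphatases (Dusp) remove phosphate from MAP kinases. Merlin, the NF2 product, is a tumour suppressor often lost in mesothelioma. It acts upstream of the Hippo pathway and also restrains receptor signalling at the membrane.

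Values are scaled counts as deposited, that is, reads per gene divided by 1 size factor per library. Reads in genes numbered 25837151 to 29532600 per library. Nf2 had 1539 scaled counts in shSC against 486 in library 20 and 458 in library 21 (log2 fold change -1.70 ± 0.24, SE; limma adjusted p = 0.00555), in the direction of the labels. Of 9 mesothelial markers 6 were present. Their summed level was 44003 in shSC, 40068 in library 20 and 33987 in library 21, but they went both ways. Krt8, Krt18 and Krt19 were below shSC in both shNF2 libraries, with Krt18, the main part of the sum, at 23657, 20443 and 16561. Msln, Krt7 and Cdh2 were above it, with Msln at 7397, 9722 and 8977. Wt1, Upk3b and Lrrn4 had no values. Of 8 leukocyte markers Cd14 (1659 to 3222 scaled counts) and Cd68 (87.5 to 105) were present, and their summed level was 3310, 2681 and 1747 in shSC, library 20 and library 21. Ptprc, the defining leukocyte marker, had no values. No endothelial marker of 4 had values, and the only one of 4 fibroblast markers was Pdgfra at 9.74 to 14.6. The part of other cells in the results was not tested.

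Fold changes are differences of log2(scaled count + 1), tested with limma on all 12813 genes with a mean of at least 10 scaled counts. Of the 48 members, 44 reached that mean. The adjusted p is corrected over all genes tested, with a threshold of 0.05. Only Spry4 passed: 1 of 44 tested members was called lower, beside 0.429% of all genes, and 0 were called higher, beside 0.414%. At an unadjusted p under 0.05, 7 members were lower and 2 higher, beside 4.91% and 4.36% of all genes. edgeR and DESeq2, run on the recovered reads, each called 1 member lower, beside 0.406% and 0.46% of all genes, and 0 higher, beside 0.226% and 0.32%. In both shNF2 libraries 24 of the 44 members lay below shSC, beside 35.8% of all genes, and 12 lay above, beside 36.1%. These counts rest on 1 shared shSC library. The median log2 fold change of the members was -0.21, and that of all genes tested was -0.0043.

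**Figure D1:**
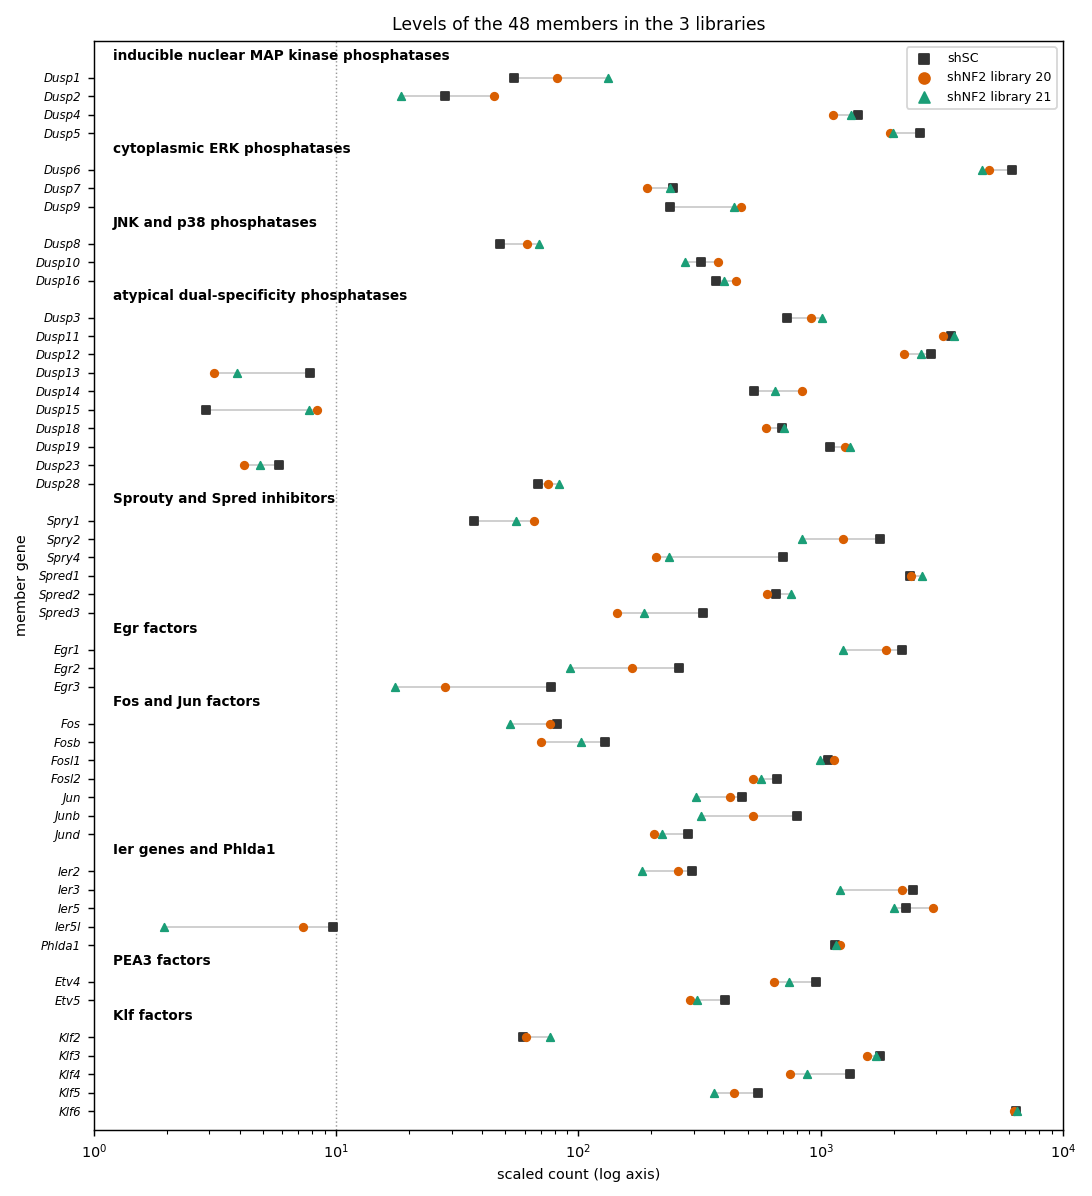
Scaled count (log axis) of each of the 48 members in shSC (square), library 20 (circle) and library 21 (triangle), ordered by role. The grey line joins a gene's 3 libraries and the dotted line marks the mean of 10 needed for a test. Spry4 runs from 701 in shSC to 210 and 236, whereas the 3 symbols of Klf6 coincide at 6257 to 6461.

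Sprouty and Spred genes encode inhibitors that sit at the membrane and dampen signalling from receptor tyrosine kinases through Ras. This group held the 1 member that passed the test. Spry4 had 701 scaled counts in shSC against 210 in library 20 and 236 in library 21. Both shNF2 libraries were far below shSC and close to each other. Spry4 fell by 1.65 on the log2 scale (SE 0.27; 95% interval -2.24 to -1.06; limma adjusted p = 0.0119), and it had the 46th smallest p of all genes tested. The ratio to shSC was 0.300 in library 20, with an exact 95% counting interval of 0.255 to 0.351, and 0.337 (0.290 to 0.390) in library 21. Such intervals cover counting error only. The call also stood with edgeR (adjusted p = 0.0160) and DESeq2 (0.00106), and it was lost under quantile normalization (0.496) and without a variance trend (0.188), where no gene at all was called.

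The other members of that group went different ways, and none passed the test. Spry2, a close relative of Spry4, had 1754, 1239 and 835 scaled counts in shSC, library 20 and library 21 (log2 fold change -0.79, 95% interval -1.35 to -0.23). Spred3 had 328, 144 and 187 (-0.99 ± 0.31, SE; adjusted p = 0.240). For both genes each shNF2 library lay below shSC, but Spry2 was lowest in library 21 and Spred3 in library 20. Spry1 had few counts, 37.0 in shSC against 65.9 and 55.4, and so went the other way (0.69, 95% interval -0.22 to 1.61). Spred1, which recruits the Ras inactivator neurofibromin, had 2339, 2356 and 2613 scaled counts, a log2 fold change of 0.09 with an interval of -0.37 to 0.54. Spred2 had 652, 598 and 753, with shSC between the shNF2 libraries. Spry3 had no values. Of the 6 tested genes, 3 lay below shSC in both libraries and 2 above, beside 35.8% and 36.1% of all genes. The differences between these genes were not tested.

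The MAP kinase phosphatases undo the activating phosphorylation of ERK, JNK and p38. None of the 10 passed the test, and their median log2 fold change was 0.02. In both shNF2 libraries 4 lay below shSC and 4 above, near the 35.8% and 36.1% of all genes. Among the growth-factor-inducible nuclear enzymes, Dusp5, which acts on ERK, had 2577 scaled counts in shSC against 1932 in library 20 and 1984 in library 21 (log2 fold change -0.40, 95% interval -0.85 to 0.06). Dusp4 had 1424, 1130 and 1330 (-0.22). Dusp1, which acts on all 3 kinase families and is induced by stress as well as by growth factors, had only 54.5, 81.6 and 133. Its value of 0.92 ± 0.41 (SE) was upward in both libraries, with an adjusted p of 0.50. Dusp2 had 28.2, 45.0 and 18.5 scaled counts, with shSC in the middle.

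The cytoplasmic phosphatases that prefer ERK were split. Dusp6, the classical ERK feedback phosphatase and a common readout of pathway activity, had 6158 scaled counts in shSC against 4963 in library 20 and 4641 in library 21. Both shNF2 libraries were lower by a small margin (log2 fold change -0.36, 95% interval -0.81 to 0.09, adjusted p = 0.664). The ratio to shSC was 0.806 in library 20 and 0.754 in library 21. Dusp9, a relative with the same preference for ERK, had 239, 469 and 439 scaled counts. Both shNF2 libraries stood well above shSC (0.92, 95% interval 0.35 to 1.5), without passing the test (adjusted p = 0.175). Dusp9 did pass after a correction for transcript GC and length (log2 fold change 1.09, adjusted p = 0.0438), against adjusted p-values of 0.0897 to 0.640 under the other alternatives. Dusp7 had 246, 191 and 238 (-0.21).

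None of the 3 phosphatases that act mainly on JNK and p38 passed the test. Dusp16 had 369, 446 and 398 scaled counts in shSC, library 20 and library 21 (log2 fold change 0.19). Dusp8 had 47.7, 61.7 and 69.0 (0.44, 95% interval -0.44 to 1.32), and Dusp10 320, 378 and 277 (0.01).

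The 10 atypical dual-specificity phosphatases match the gene name but are mostly not ERK feedback genes; Dusp11, for example, acts on RNA. Of 7 tested, 0 passed, with a median of 0.22. In both libraries 1 was below shSC and 4 were above, beside 35.8% and 36.1% of all genes. Dusp14 had 532 scaled counts in shSC against 840 in library 20 and 649 in library 21 (log2 fold change 0.47), and Dusp3 had 725, 910 and 1015 (0.41). Dusp11 had 3459, 3196 and 3554 (-0.04). Dusp13, Dusp15 and Dusp23 had 3 to 8 reads per library and were not tested. Without the atypical enzymes the median of the remaining 37 tested members was -0.36.

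**Figure D2:**
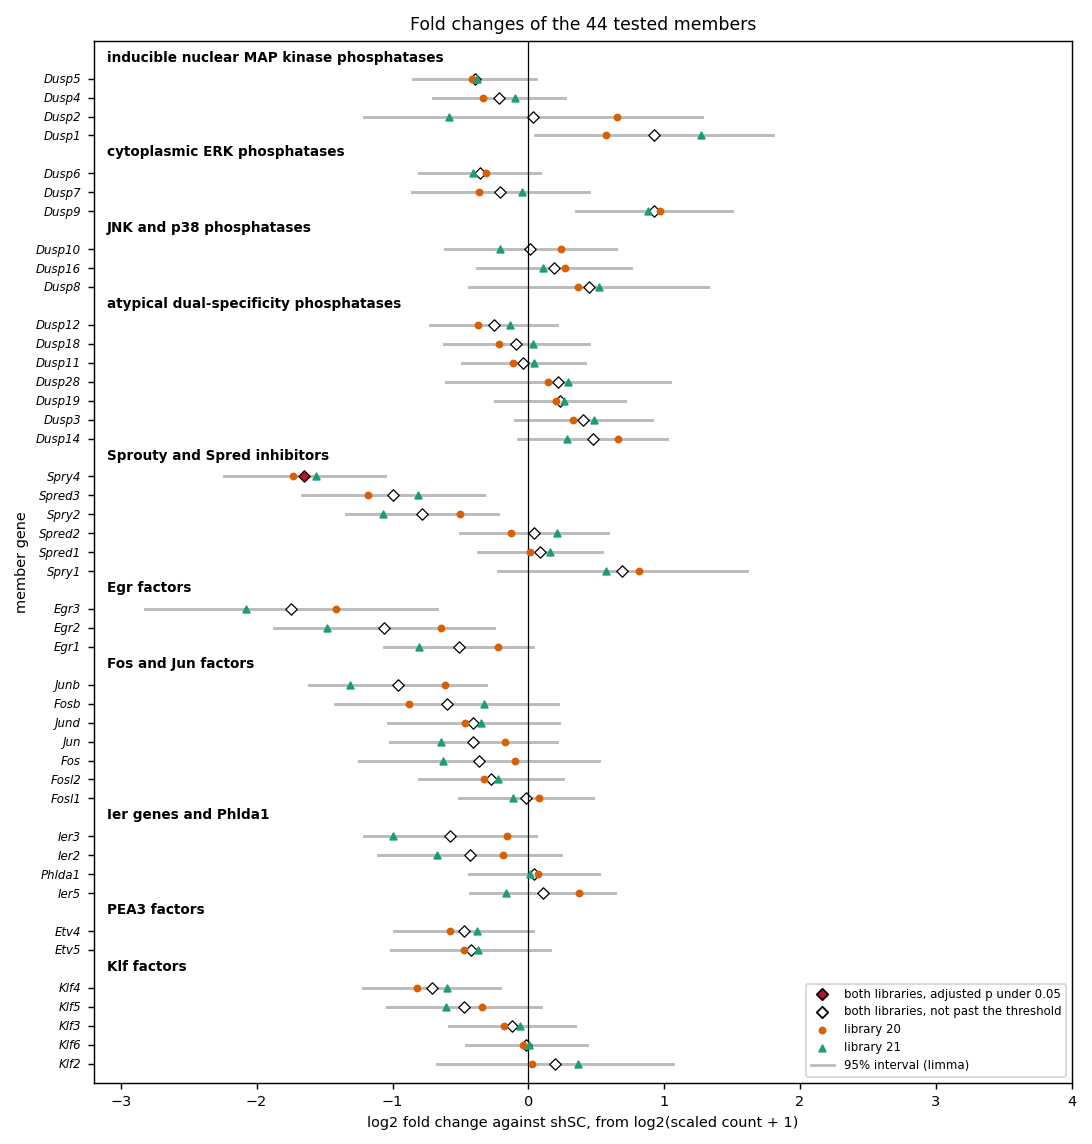
Log2 fold change against shSC of the 44 tested members, by role. Diamonds give the estimate from both shNF2 libraries with its 95% limma interval (grey), filled where the adjusted p was under 0.05; circles and triangles give library 20 and library 21 alone. Spry4 at -1.65 is the only filled diamond, Egr3 reaches -1.74 with a wider interval, and Dusp1 and Dusp9 stand at 0.92.

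Egr genes encode zinc-finger transcription factors that are among the first genes transcribed after ERK activation. All 3 tested Egr genes lay below shSC in both libraries, beside 35.8% of all genes, and none passed the test. Egr1 had 2167 scaled counts in shSC against 1855 in library 20 and 1241 in library 21 (log2 fold change -0.51, 95% interval -1.07 to 0.04). Egr2 had 260, 166 and 92.3 (-1.06 ± 0.38, SE; adjusted p = 0.337). Egr3 had 76.9, 28.2 and 17.5, and its log2 fold change of -1.74 was the lowest of any member. Its interval ran from -2.82 to -0.67 and its adjusted p was 0.172. The counting interval of the ratio to shSC was 0.228 to 0.575 in library 20 and 0.128 to 0.383 in library 21. Each of the 3 genes was lower in library 21 than in library 20. Egr4 had no values.

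Fos and Jun proteins pair to form the transcription factor AP-1. Of 7 tested genes 6 lay below shSC in both shNF2 libraries and 0 above in both, beside 35.8% and 36.1% of all genes. None passed. Junb had 801 scaled counts in shSC against 524 in library 20 and 322 in library 21 (log2 fold change -0.96, 95% interval -1.61 to -0.31, adjusted p = 0.240). Jun had 476, 423 and 305 (-0.41), Jund 283, 205 and 223 (-0.41) and Fosl2 662, 528 and 568 (-0.27). Fosb had 129, 70.1 and 103 (-0.60), so it was lowest in library 20. Fos, the prototype immediate early gene, was low in all libraries at 81.8, 76.4 and 52.5 (-0.36, 95% interval -1.25 to 0.52). Fosl1, whose protein is stabilised by ERK, had 1074, 1136 and 993 (-0.02), and shSC lay between the shNF2 libraries. Corrected for transcript GC and length, Jund had -0.28 in library 20 and 0.12 in library 21, and Fosl1 had 0.13 and 0.16. Jund then no longer lay below shSC in both libraries, and Fosl1 lay above in both.

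Ier genes are short immediate early genes named for that property. Ier3, linked to cell survival, had 2414 scaled counts in shSC against 2159 in library 20 and 1208 in library 21, so nearly all of its difference lay in library 21 (log2 fold change -0.16 in library 20 and -1.0 in library 21). Ier2 had 294, 258 and 184 (-0.43). Ier5 had 2253, 2915 and 2012 (0.10), above shSC in one library and below it in the other. Ier5l had 2 to 10 reads and was not tested. Phlda1, a pleckstrin-homology-like protein gene often used as a readout of ERK output, had 1142, 1201 and 1154 scaled counts (0.04, 95% interval -0.44 to 0.52).

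Etv4 and Etv5, ETS-family factors of the PEA3 group that are induced by growth factor signalling, were lower by similar amounts. Etv4 had 959 scaled counts in shSC against 643 in library 20 and 738 in library 21 (log2 fold change -0.48, 95% interval -0.99 to 0.04). Etv5 had 402, 289 and 310 (-0.43, -1.01 to 0.16). Both shNF2 libraries were below shSC for both genes, and neither passed the test.

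Klf genes encode zinc-finger factors, several of which respond early to serum. Klf4 had 1327, 750 and 876 scaled counts in shSC, library 20 and library 21 (log2 fold change -0.71, 95% interval -1.21 to -0.21, adjusted p = 0.276). Klf5 had 554, 437 and 365 (-0.47). Klf6 had 6424, 6257 and 6461 (-0.02, 95% interval -0.46 to 0.43), and Klf3 1759, 1552 and 1686 (-0.12). Klf2 had 59.4, 60.7 and 76.8 (0.20). None of the 5 passed. In both libraries 3 lay below shSC and 1 above, beside 35.8% and 36.1% of all genes.

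Over all 44 tested members, 20 were lower in library 21 than in library 20, with a median difference (library 21 minus library 20) of 0.055. So were 0 of the 2 PEA3 genes and 1 of the 5 Klf genes. Libraries 20 and 21 differed more among the other immediate early genes, and not only among members. Of the 23 tested immediate early genes outside the named families, 17 were lower in library 21, with a median difference of -0.22. The 14 tested Egr, Fos, Jun and Ier genes with Phlda1 were not planned as a group. Of them, 11 were lower in library 21 than in library 20, beside 49.2% of all genes tested. Their median log2 fold change against shSC was -0.21 in library 20 and -0.64 in library 21. With the untested Ier5l, their summed level was 12125 scaled counts in shSC against 11553 in library 20 and 8477 in library 21. That sum is not corrected for GC and depends most on the abundant genes Ier5, Ier3 and Egr1. These had 2915, 2159 and 1855 scaled counts in library 20 against 2012, 1208 and 1241 in library 21. Corrected for transcript GC and length, the medians were -0.22 and -0.41, and 10 of the 14 genes were lower in library 21, beside 52.7% of all genes so corrected. The 10 MAP kinase phosphatases had medians of 0.25 and -0.07. Spry4, Spred3, Klf4, Etv4 and Etv5, picked out after their values were seen, had their lower value in library 20. With 1 library each, the difference between libraries 20 and 21 has no replicate check. Of the 44 tested members, 3 were at least 2-fold lower in library 20, beside 2.92% of all genes, and 5 in library 21, beside 3.28%. Spry4 and Egr3 were in both sets, Spred3 only in that of library 20, and Spry2, Egr2 and Junb only in that of library 21. At least 2-fold higher were 0 tested members in library 20, beside 2.55%, and 1 in library 21, Dusp1, beside 2.56%. The 4 members too low for a test are not in these counts; among them Dusp13, Dusp15 and Ier5l were past 2-fold in at least 1 library, on 2 to 10 reads.

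Library 21 differed from shSC with the GC content of transcripts, and the members are rich in GC. With human transcripts of the same gene name as stand-ins, the median GC was 55.2% over the 44 members and 49.8% over the 10335 genes that had a stand-in. When genes were ranked by GC and cut into 8 equal bins, the median of library 21 was 0.19 in the lowest bin and -0.31 in the highest, whereas that of library 20 was 0.02 and -0.05. The 2 highest bins held 16 of the 44 members. After the GC and length trend was subtracted from each library, the members' median was -0.18 in library 20 and -0.24 in library 21, against -0.18 and -0.19 before. Members below shSC in both libraries again numbered 24, beside 35.0% of all genes so corrected, but the set was not the same. Dusp7 and Jund left it, and Dusp11 and Klf6, with values near 0 before, entered. Members above shSC in both libraries numbered 10, against 12 before. In library 21 the value of Junb went from -1.31 to -1.01, that of Egr3 from -2.07 to -1.75, that of Ier3 from -1.0 to -0.78 and that of Spred3 from -0.81 to -0.44. Spry4 went from -1.57 to -1.50 and Egr2 from -1.48 to -1.55. Jund, the member richest in GC at 69.7%, went from -0.35 to 0.12.

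**Figure D3:**
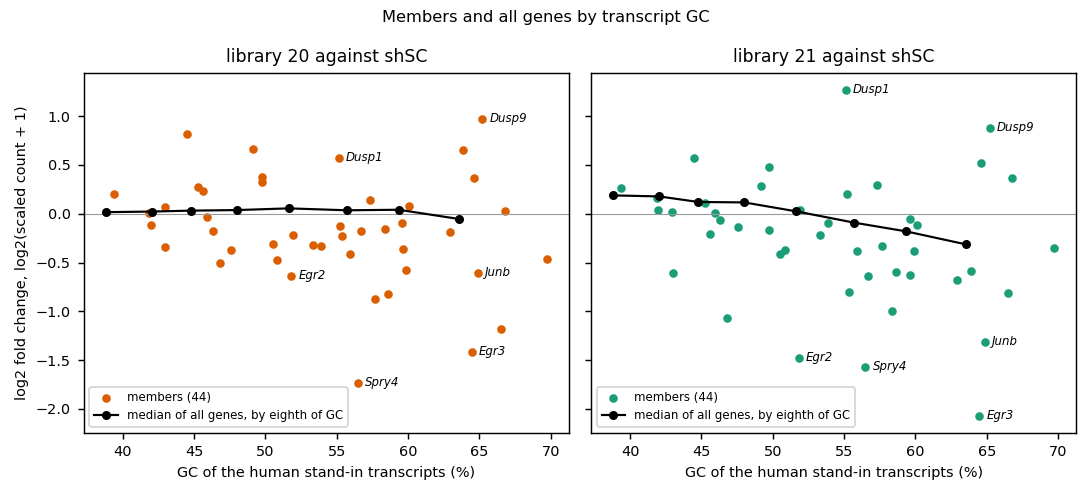
Log2 fold change against shSC of the 44 tested members (coloured points) by GC content of human stand-in transcripts, for library 20 (left) and library 21 (right). The black line joins the median of all genes in each of 8 bins of GC; it is nearly flat on the left and falls from 0.19 to -0.31 on the right.

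Upstream of ERK, the EGF receptor ligands Btc and Areg fell. Of 15 tested genes for EGF family ligands and growth factor receptors, 2 fell and 0 rose, with a median log2 fold change of -0.10. Btc, which encodes betacellulin, had 4250, 948 and 1058 scaled counts in shSC, library 20 and library 21 (-2.08, adjusted p = 0.000993). Areg, which encodes amphiregulin, had 7488, 2711 and 2129 (-1.64, adjusted p = 0.00482). Egfr, the receptor of both, was picked out after its values were seen and had 166, 314 and 303 scaled counts, a log2 fold change of 0.89. The genes of this list and of the 5 that follow came from knowledge of the pathway, with earlier results of these data known.

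Among 21 tested adaptors, Ras proteins and Ras regulators the median was -0.02, 0 fell, and the 1 gene that passed upward is uncertain. It was Rasgrp3, an exchange factor that loads Ras with GTP, with 1 read in shSC, 20 in library 20 and 51 in library 21, so it reached the mean needed for a test only through the shNF2 libraries. The ratio to shSC was 21.5 in library 20 (exact 95% counting interval 3.44 to 891) and 50.9 in library 21 (8.74 to 2050). The limma call (adjusted p = 0.0137) was lost with edgeR (0.0651), DESeq2 (0.239) and a pseudocount of 10 (0.0549), and also under quantile normalization (0.523) and without a variance trend (0.171). Rasa1, a Ras GTPase-activating protein gene, had 3720, 2239 and 3145 scaled counts (-0.49, adjusted p = 0.575).

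The 14 tested RAF, MEK and ERK kinases and scaffolds had log2 fold changes from -0.43 to 0.30 and a median of -0.03, and 0 passed. The smallest p-values belonged to the scaffold gene Lamtor3 (2920, 2391 and 1959 scaled counts, -0.43) and to Shoc2 (1420, 1599 and 1905, 0.30). Of 17 effector kinases and ETS or ternary complex factors 1 rose and 0 fell, with a median of 0.02. Ets1, an ETS factor phosphorylated by ERK, had 407 scaled counts in shSC and rose to 1261 and 1103 (log2 fold change 1.53 ± 0.24, SE; adjusted p = 0.00849). Etv4 and Etv5, of the same family, had values below shSC. Rps6ka5, a nuclear kinase downstream of ERK and p38, had 68.2, 195 and 195 (1.5, adjusted p = 0.0562), and it passed without the filter on low values (0.0117), against 0.0511 to 0.523 under the other alternatives.

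Among 23 tested immediate early genes outside the named families, 1 rose and 1 fell, with a median of -0.24. Gem, a small GTP-binding protein gene, fell from 598 scaled counts in shSC to 174 and 239 (log2 fold change -1.55 ± 0.30, SE; adjusted p = 0.0283). Cyr61, a target of both serum response factor and YAP, rose from 445 to 1404 and 1993 (1.91, adjusted p = 0.00469). In this list 13 genes lay below shSC in both libraries and 5 above, beside 35.8% and 36.1% of all genes. Of 10 other genes used as ERK output readouts, 0 passed, and the median was -0.24. Epha4 had 693, 1062 and 1173 scaled counts (0.69), and Il1rl1 had 72.1, 13.6 and 43.7 (-1.52, adjusted p = 0.433).

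**Figure D4:**
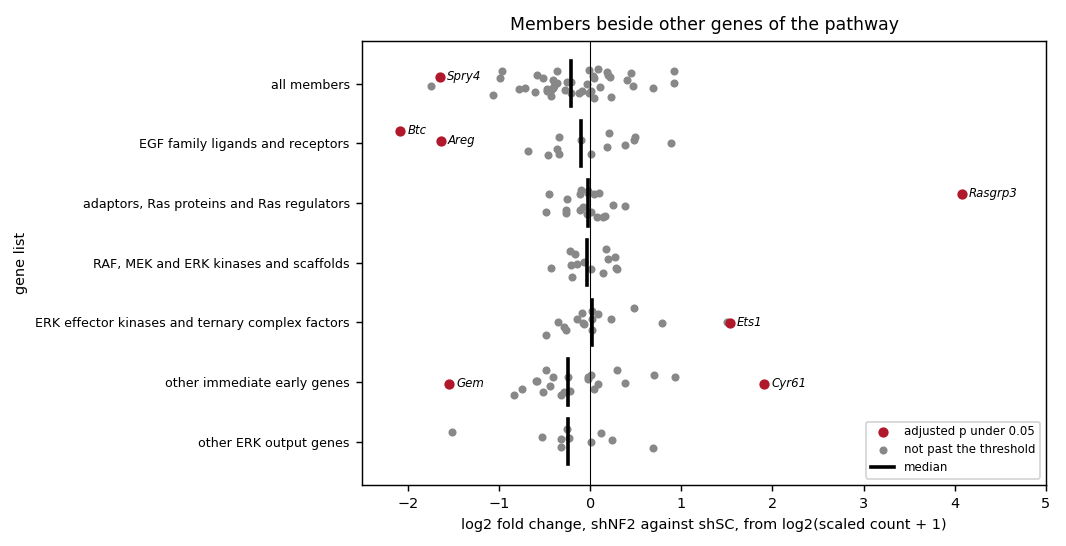
Log2 fold change, shNF2 against shSC, of each tested gene in 7 lists, with the 44 members at the top and upstream, kinase and target lists below. Red points passed the test, grey points did not, and the bar is the median. The list of RAF, MEK and ERK kinases and scaffolds lies between -0.43 and 0.30. The red points are Spry4, Btc, Areg, Rasgrp3, Ets1, Gem and Cyr61.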

How the data were processed

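The authors deposited 1 table of gene signal whose name describes scaled counts, with 13936 genes and 4 rows that name no gene. Those 4 rows held 47.7% to 48.7% of the reads and were left out. Per the submitters' processing notes, the tools were STAR 2.5.0a, HTSeq 0.5.3, cutadapt 1.6 and DESeq 1.22.1 (roles and order not listed) and the build was mm10. The strand setting of the counting is unknown here. The deposited values are whole reads divided by 1 factor per library (1.03 for shSC, 0.956 for library 20, 1.03 for library 21): 100% came out whole within 0.001 reads. No gene totalled under 15 reads over the 3 libraries; how low genes were dropped is not stated.

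Groups came from the labels. limma 3.58.1 (R 4.3.3, variance trend) took log2(scaled count + 1) of the 12813 genes whose mean was 10 or more, and p-values were adjusted by Benjamini-Hochberg. The only residual degree of freedom (1) is the difference between libraries 20 and 21, with 11.9 prior degrees of freedom from moderation, so shSC, which has no replicate, is taken to vary as they do. An exact permutation test of 2 libraries against 1 cannot go below p = 0.333. edgeR 4.0.16 and DESeq2 1.42.0 on the recovered reads were alternatives, as were other pseudocounts, filters and scalings, and each shNF2 library left out. The scripts were tested on simulated data. GC and length came from human GENCODE v29 protein-coding transcripts (10335 genes, 80.7% of those tested) and were corrected with mgcv 1.9.3, an alternative chosen after seeing the data. No mouse sequence was used here.

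The members and lists were chosen with earlier results of these data known. The rule for named genes took Nf2, Spry4 and, in each of 10 member groups and 6 pathway lists, those that passed and the 2 with the smallest p, with the member of highest mean in each group. Other members and Egfr are given as description, some with their limma interval. The interval of a ratio is an exact (Clopper-Pearson) 95% interval on reads.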

Additional observations from a re-analysis of the deposited data

How the results depend on the processing

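The call on Spry4 as the 1 member lower in shNF2 held under 8 of 10 other settings with a test, and also with GC and length correction, with log2 fold changes from -1.66 to -1.61. Under quantile normalization and without a variance trend 0 members and 0 genes were called lower and 0 higher (882 and 1036 genes at an unadjusted p under 0.05), and Spry4 had adjusted p-values of 0.496 and 0.188. With GC and length correction 1 member was called higher, Dusp9, beside 51 of the 10335 genes so corrected. The same setting called 67 of those genes lower. Over all genes in the main test, 55 were called lower and 53 higher. Without the filter on low values these counts were 122 and 110, and edgeR called 29 genes higher. The members' median log2 fold change of -0.21 was -0.24 without the filter, -0.22 with TMM, -0.22 under quantile normalization, -0.19 with GC and length correction and -0.36 without the atypical phosphatases. Leaving out 1 shNF2 library gave -0.19 to -0.18, as a value with no test. Of all 44 tested members, 8 had shSC between the shNF2 libraries, so their sign depended on which library was left out. Among the 26 members named by the rule, which favours small p-values, the sign of 5 with values near 0 turned. Dusp11 had 0.039 without library 20 and -0.11 without library 21. Fosl1 had 0.14 with GC and length correction, and -0.11 and 0.081 without library 20 and library 21. Ier5 had -0.16 and 0.37 in the same order, and Klf6 had 0.0082 and -0.038, and 0.068 under quantile normalization. Spred1 had -0.036 with GC and length correction. The causes were not tested. No paired analysis was possible because shSC has only 1 library. The median standard error was 0.26 over all genes and 0.41 to 0.50 for Fos, Dusp1, Egr3 and Spry1, which had few counts. Spred3 (log2 fold change -0.99, SE 0.31) and Junb (-0.96, SE 0.30) did not pass either.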
